A study of Mus musculus with 19 samples.

Results

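The axon guidance ligands and receptors described here are the semaphorins, plexins, neuropilins, ephrins, Eph receptors, Slits, Robo receptors, netrins, netrin-G proteins, Unc5 receptors and Dcc of the mouse. They were chosen by gene symbol alone: 72 of the 47643 symbols in the deposited table matched, and 3 antisense transcripts of Plxna4 among them were set aside, which left 69 members. Of these, 35 encode ligands and 34 encode receptors. The expression measured was that of embryonic cortex at day E14.5, by RNA-seq of total RNA, in 19 libraries. Dissected pieces labelled dorsal cortex gave 6 wildtype and 4 mutant libraries, and pieces labelled medial cortex gave 5 wildtype and 4 mutant libraries. The extraction protocol speaks of medial or lateral cortices, while the tissue labels say dorsal and medial cortex, which are the names used here. The mutant is GFAP::Cre; SmoM2, in which Cre recombinase driven by the promoter of GFAP, a gene used to reach radial glia and astrocytes, turns on SmoM2, an active form of the Hedgehog signal transducer Smoothened. The wildtype libraries are called controls below, and their labels give no other allele or treatment. Which cells had recombined, and whether embryos were pooled, is not given in the sources used here.

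Axon guidance molecules steer growth cones and migrating neurons by attraction or repulsion. Semaphorins signal through plexins, the secreted class 3 semaphorins mostly with a neuropilin as co-receptor. Ephrins are membrane-bound ligands of the Eph receptor tyrosine kinases and can also signal back into the cell that carries them. Slits are secreted ligands of Robo receptors, and netrins attract through Dcc and repel through Unc5 receptors. In the embryonic cortex these families act in the migration of young neurons, in the layout of cortical areas and in the routes of callosal, corticofugal and thalamic axons.

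Values are in TPM, a transcript abundance scaled by transcript length and to the same total in every library, so levels can be compared between genes but the read depth behind them is unknown. Between 17357 and 18670 genes were above 0 in a library, and libraries of the same group correlated with r of 0.975 to 0.993 across genes. Gli1 and Ptch1, targets of Hedgehog signalling, checked the genotype labels: Gli1 ran from 0.327 to 1.08 TPM in control dorsal and 0.20 to 0.558 TPM in control medial libraries, against 30.7 to 42.8 and 24.3 to 48.1 TPM in the mutant libraries. Emx1, a defining gene of the dorsal telencephalon, was at 135 to 150.5 TPM in control dorsal and 165 to 195 TPM in control medial libraries, so this marker of the labelled tissue was present in both regions. A level in bulk tissue is a sum over cells, and fewer cells of a type cannot be told apart from less RNA per cell. The title numbers pair a dorsal with a medial library in 9 embryos, and the labels do not say otherwise which libraries come from separate animals, so p-values measure the spread between these libraries. By Xist and Ddx3y, 3 of the control embryos were female, and the other control embryos and every mutant embryo were male.

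In control dorsal cortex the members spanned a wide range of levels. The most abundant was the receptor Epha4, an Eph receptor that binds both classes of ephrin, at 294 ± 14.7 TPM (SD, n = 6). Efnb1, a transmembrane ephrin, followed at 239 ± 5.42 TPM, and Epha3, a receptor of A-type ephrins, at 238 ± 15 TPM, and these neighbours in the order overlapped library by library. Below them stood Efnb2 at 199.8 ± 13.2, the semaphorin co-receptor Nrp1 at 177 ± 10.9, the plexins Plxna2 at 119.8 ± 14.8 and Plxnb2 at 119 ± 5.52, and Epha5 at 108 ± 14.2 TPM (all SD, n = 6). Plxna2, Plxnb2 and Epha5 also overlapped one another. A group of 28 members lay between 20 and 100 TPM, 13 between 5 and 20, 9 between 1 and 5, and 11 below 1 TPM. Epha1, Epha6, Epha8, Epha10, Plxnb3 and Sema3d, all but Sema3d receptors, did not reach 1 TPM in 4 libraries and were not tested. The highest value of any of these in any library was 1.35 TPM, for Epha8. The tests below therefore cover 63 members, 34 ligands and 29 receptors.

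**Figure D1:**
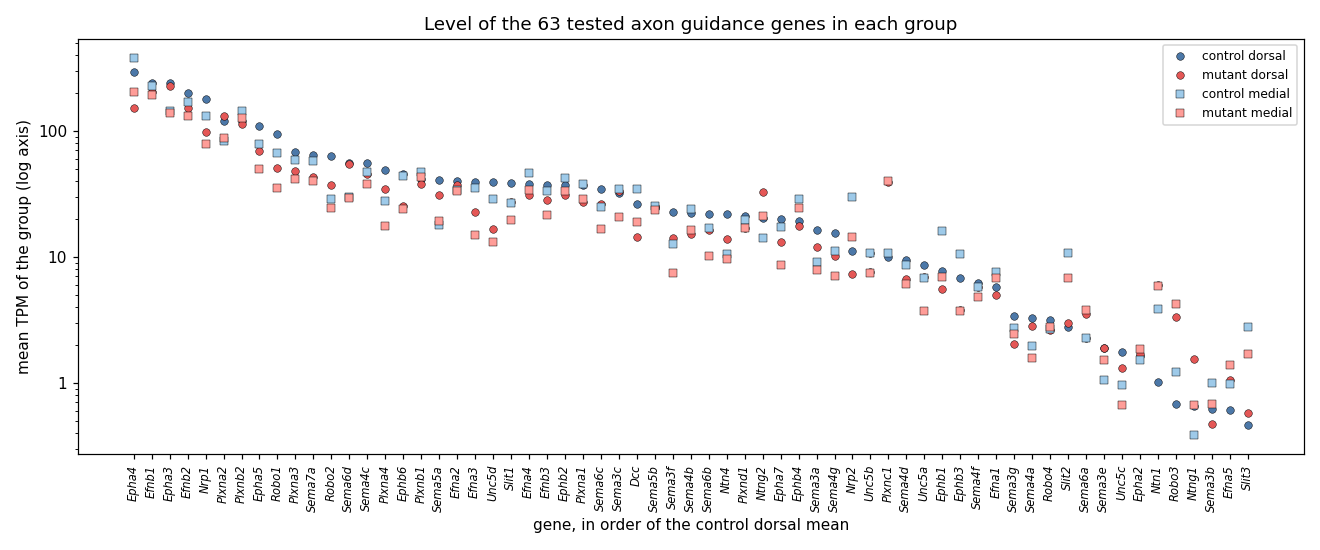
Mean TPM of each of the 63 tested members in the 4 groups, on a log axis, with genes ordered along the horizontal axis by their control dorsal mean. Each point is a group mean, and the order runs from Epha4 at 294 ± 14.7 TPM (SD, n = 6) to Slit3 at 0.463 ± 0.107 TPM; mutant means lie below control means for most genes above 5 TPM, and Plxnc1 is an exception.

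The first question was which guidance genes differed between mutant and control cortex. In dorsal cortex 32 of the 63 tested members fell and 6 rose (limma on log2(TPM + 1), Benjamini-Hochberg adjusted p under 0.05). Among all 13520 genes tested, 37.5% passed in this comparison, 9.93% higher and 27.6% lower. In medial cortex 33 members fell and 4 rose, where 39.6% of all genes passed, 9.44% higher and 30.2% lower. The median log2 change of the members was -0.29 in dorsal and -0.33 in medial cortex, beside -0.10 and -0.11 for all genes. Levels of mutant and control libraries did not overlap for 28 members that were lower and 4 that were higher in dorsal cortex, where 24.8% of all genes did not overlap, 17.6% lower and 7.25% higher. In medial cortex this held for 25 lower members and 1 higher member, against 30.4% of all genes, 22.7% lower and 7.63% higher. The medians of all genes sat below 0, and rescaling the libraries moved them: with median-ratio rescaling, 15.4% of all genes passed higher and 14.8% lower in dorsal cortex, and 15.8% and 17.3% in medial cortex. Quantile normalization moved the median of all genes in medial cortex from -0.11 to -0.01. The members then passed 7 higher and 27 lower in dorsal cortex and 4 and 29 in medial cortex after median-ratio rescaling, and 7 and 28, and 6 and 30, after quantile normalization. Of the 13520 genes, quantile normalization left 1959 higher and 2173 lower in dorsal cortex, 16.1% lower, and 2164 and 2275 in medial cortex, 16.0% and 16.8%. Relative to all genes, the members' median lay at -0.19 in dorsal cortex under each of these 3 scalings, and at -0.22 or -0.21 in medial cortex.

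The medial and dorsal comparisons use different libraries, mostly from the same embryos. A set of 28 members, 44.4% of those tested, fell in both regions, where 22.8% of all genes did so. Plxnc1, Ntng2, Robo3 and Sema6a rose in both regions, 6.35% of the members against 7.89% of all genes, and no member moved in opposite directions. Neither region gave a call for 20 members. By role, 17 of the 34 tested ligands fell and 4 rose in dorsal cortex, and 15 fell and 2 rose in medial cortex. Of the 29 tested receptors, 15 fell and 2 rose in dorsal cortex, and 18 fell and 2 rose in medial cortex. The share that fell was higher among well expressed members: 25 of the 36 at or above 20 TPM in control dorsal cortex fell there, against 1 of the 14 tested members below 5 TPM. The pseudocount compresses the changes of low members on this scale. The share of all genes that fell at these levels was not counted, so this is not read as a trait of the members.

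Sex and genotype overlap in part, so the comparison was repeated with male embryos only, 3 dorsal and 2 medial control libraries against all mutants. In dorsal cortex 24 members then fell and 4 rose, where 14.9% of all genes fell and 6.34% rose. In medial cortex 29 fell and 2 rose, where 17.2% of all genes fell and 5.66% rose. Calls that no longer passed in dorsal cortex were those of Ephb3 (limma adjusted p = 0.0512), Efnb1 (0.0546), Sema6c (0.0603), Efnb3 (0.0604), Sema3a (0.0610), Sema4c (0.0770), Ntng1 (0.0794), Ephb2 (0.0849), Robo3 (0.0995) and Sema6b (0.287). In medial cortex they were Sema6b (0.0574), Plxnb2 (0.0694), Ephb1 (0.10), Nrp2 (0.101), Ntng2 (0.140), Robo3 (0.151) and Slit3 (0.377). Medial Robo2 passed as lower in these embryos.

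**Figure D2:**
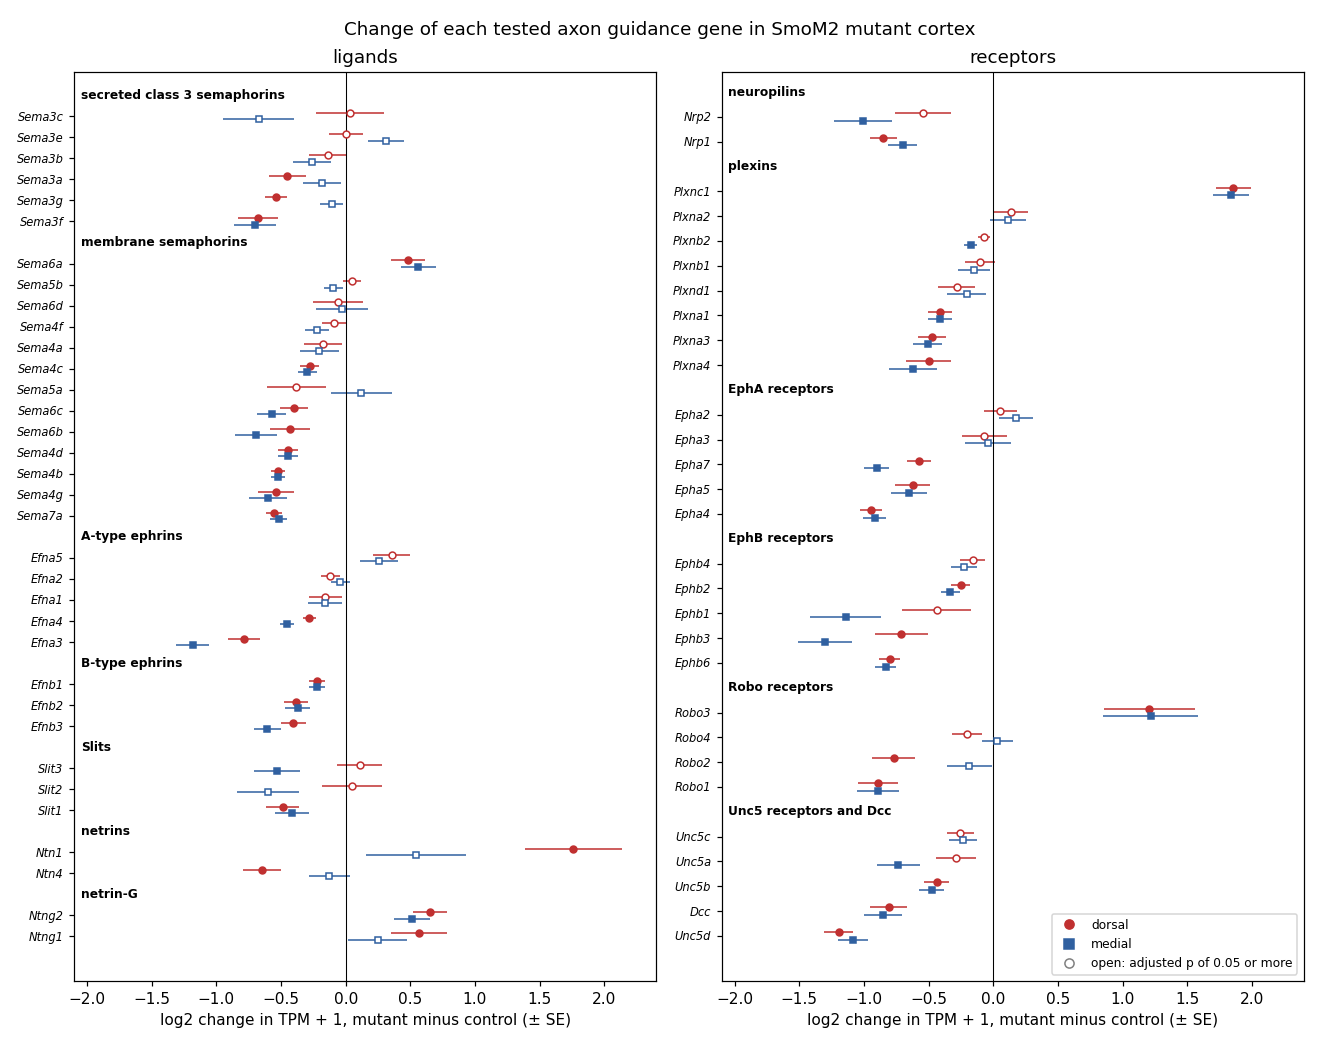
Log2 change, mutant against control, of every tested member in dorsal and in medial cortex, with its standard error. Members are grouped by family, ligands on the left and receptors on the right, and filled points passed at an adjusted p of 0.05; Plxnc1 stands furthest to the right at 1.86 and 1.84, and Unc5d furthest to the left in dorsal cortex at -1.20.

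Plxnc1, the plexin that serves as receptor of the membrane-anchored semaphorin Sema7a, was the member with the largest rise. It lies on chromosome 10, 94790866 to 94944835, minus strand of mm10. Plxnc1 ran from 8.87 to 10.9 TPM (median 9.999) in the 6 control dorsal libraries and was at 42.9, 38.6, 41 and 33.6 TPM in mutant dorsal libraries 1 to 4. In medial cortex it was at 14.8, 12.8, 7.71, 8.04 and 10.1 TPM in control libraries 2 to 6 and at 34.3, 41.6, 45.4 and 38 TPM in mutant libraries 1 to 4. Every mutant library stood above every control library of its region, with no overlap. The log2 change was 1.86 ± 0.14 (SE, limma adjusted p = 2.07e-08) in dorsal and 1.84 ± 0.14 (adjusted p = 5.32e-08) in medial cortex.

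Sema7a, its ligand, on chromosome 9, 57940112 to 57962865, plus strand, changed the other way. It ran from 57 to 67.8 TPM (median 65) in control dorsal libraries and was at 42.3, 42.3, 42.7 and 45.5 TPM in the mutant ones. In medial cortex it was at 57.2, 55.2, 59.7, 52.9 and 64.4 TPM in control and 38.3, 43, 35.7 and 43.6 TPM in mutant libraries. All mutant libraries were lower than all controls in both regions. Sema7a fell by 0.55 ± 0.06 on the log2 scale (limma adjusted p = 2.86e-06) in dorsal and by 0.52 ± 0.07 (adjusted p = 1.12e-05) in medial cortex, so receptor and ligand moved in opposite directions in both pieces of tissue.

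The promoters of 5 members are printed because the results turn on these genes: Plxnc1 and Robo3 rose, Sema7a and Epha4 fell, and Ephb3 fell and holds a match to a Gli motif. Each line gives bases upstream of the RefSeq gene start (GRCm38.p6), 5′ to 3′ on the gene's strand, with bases inside the annotated gene body left off. Capitals mark CpG dinucleotides in the first 4 sequences and the motif match in Ephb3.
Plxnc1 (chr10:94944846-94945095, minus strand): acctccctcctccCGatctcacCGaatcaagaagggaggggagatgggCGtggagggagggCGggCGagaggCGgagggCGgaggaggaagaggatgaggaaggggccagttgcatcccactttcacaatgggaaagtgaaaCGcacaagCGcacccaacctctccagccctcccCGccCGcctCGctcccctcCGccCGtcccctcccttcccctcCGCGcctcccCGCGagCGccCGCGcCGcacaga
Sema7a (chr9:57939862-57940111, plus strand): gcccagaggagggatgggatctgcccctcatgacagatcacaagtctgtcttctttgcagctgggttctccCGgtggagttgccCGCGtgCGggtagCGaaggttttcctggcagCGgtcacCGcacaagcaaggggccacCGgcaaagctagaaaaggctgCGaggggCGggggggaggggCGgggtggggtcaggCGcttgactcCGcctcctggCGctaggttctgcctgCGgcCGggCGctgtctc
Robo3 (chr9:37433247-37433425, minus strand): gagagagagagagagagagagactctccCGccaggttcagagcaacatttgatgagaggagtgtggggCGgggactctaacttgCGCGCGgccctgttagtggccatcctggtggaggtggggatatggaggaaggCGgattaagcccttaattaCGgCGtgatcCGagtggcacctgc
Epha4 (chr1:77515089-77515338, minus strand): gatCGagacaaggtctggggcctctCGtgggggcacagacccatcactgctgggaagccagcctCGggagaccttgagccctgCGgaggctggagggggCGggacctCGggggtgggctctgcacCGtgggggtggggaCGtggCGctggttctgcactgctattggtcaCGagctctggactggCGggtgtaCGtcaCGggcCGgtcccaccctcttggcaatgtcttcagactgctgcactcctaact
Ephb3 (chr16:21204545-21204754, plus strand): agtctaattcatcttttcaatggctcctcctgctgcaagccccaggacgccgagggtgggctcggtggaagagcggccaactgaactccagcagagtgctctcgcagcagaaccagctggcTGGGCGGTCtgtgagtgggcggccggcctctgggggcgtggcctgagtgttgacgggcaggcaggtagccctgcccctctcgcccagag

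Gli proteins are the transcription factors of the Hedgehog pathway, and their binding consensus was searched as TGGGTGGTC on both strands, the other strand reading GACCACCCA. Promoters of 59 members, 75 in all because some genes have several starts, were in the RefSeq table, each covering 250 bases before and 50 after a start. None of the 75 held the consensus, which 0.253% of all 32851 promoters held. With the fifth base free, TGGGNGGTC, a search that includes the consensus, 1 member gene matched, Ephb3, beside 1.14% of all genes. The match in Ephb3 reads TGGGCGGTC and starts 129 bases before the gene start. Member promoters had a median of 64.4% G and C and 16 CpG dinucleotides in the upstream bases, against 52.4% and 6 for all promoters. These are matches of letters in a window and describe neither binding nor its absence.

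Ntn1, the founding secreted netrin, on chromosome 11, 68209364 to 68400823, minus strand, was low in control dorsal cortex, from 0.69 to 1.22 TPM (median 1.09). In mutant dorsal libraries it was at 5.18, 8.81, 5.56 and 4.4 TPM, above every control. The log2 change was 1.76 ± 0.37 (SE, limma adjusted p = 0.00136). In medial cortex control libraries 2 to 6 were at 7.14, 5.81, 1.5, 0.813 and 3.92 TPM and mutant libraries 1 to 4 at 11.8, 5.39, 3.33 and 2.79 TPM. These overlapped, the controls themselves spanning a wide range, and the log2 change of 0.54 ± 0.39 did not pass (adjusted p = 0.281). Wnt3a, a defining gene of the cortical hem at the medial edge of the cortex, was at 8.76, 7.77, 0.206, 0.0430 and 2.43 TPM in the same control medial libraries 2 to 6 and at 7.83, 0.0468, 0.0318 and 0 TPM in the mutant ones, so the controls with high Ntn1 also had high Wnt3a. The summed level of the 8 medial pallium and hem markers ran from 36 to 971 TPM in control medial and from 15.5 to 182 TPM in mutant medial libraries. Ttr, a gene of that list, made up most of the highest sums. It was at 934 TPM in control medial library 4 and 160.5 TPM in mutant medial library 3, where Wnt3a was at 0.206 and 0.0318 TPM. The sum of the list therefore did not follow Wnt3a. In the dorsal libraries that sum was 11.6 to 27.5 TPM in controls and 8.86 to 29.7 TPM in mutants, and Wnt3a did not exceed 0.10 TPM in the controls or 0.259 TPM in the mutants. The part of hem tissue in the medial Ntn1 values was not tested.

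Ntn4, the other secreted netrin measured, ran from 19.4 to 24.6 TPM (median 22.2) in control dorsal libraries and was at 9.47, 13.5, 14.52 and 18.4 TPM in the mutant ones, with no overlap. It fell by 0.65 ± 0.15 on the log2 scale there (limma adjusted p = 0.00258). In medial cortex the change was -0.13 ± 0.16 and did not pass (adjusted p = 0.554). The secreted netrins of dorsal cortex thus changed in opposite directions, Ntn4 being the more abundant in all 10 dorsal libraries.

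Robo3, a divergent Robo receptor best known from commissural axons, was low in controls. It ran from 0.192 to 1.16 TPM (median 0.667) in control dorsal libraries, with mutant libraries 1 to 4 at 2.34, 1.06, 7.57 and 2.46 TPM. Control medial libraries were at 0.914, 1.83, 0.462, 2.33 and 0.514 TPM and mutant medial ones at 3.1, 1.95, 7.14 and 4.69 TPM. Library 3 of the mutant was the highest in both regions, and the groups overlapped in both. The log2 change was 1.21 ± 0.35 (SE, limma adjusted p = 0.0119) in dorsal and 1.22 ± 0.37 (adjusted p = 0.0130) in medial cortex. Both calls depended on mutant library 3 of the region: the adjusted p was 0.0662 without mutant dorsal replicate 3 and 0.0570 without mutant medial replicate 3.

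The netrin-G proteins, membrane-anchored relatives of netrins that bind partners on opposing cells, both rose in dorsal cortex, and Ntng2 also in medial cortex. Ntng2 ran from 17.7 to 23.9 TPM (median 20.4) in control dorsal libraries and was at 34.3, 38.5, 28.7 and 29.5 TPM in mutant ones, all above the controls. In medial cortex it was at 12.9, 14.53, 13.3, 13.7 and 16.2 TPM in control and 16, 29.1, 17.2 and 22 TPM in mutant libraries, which overlapped. Its log2 change was 0.65 ± 0.13 (limma adjusted p = 0.00102) in dorsal and 0.51 ± 0.14 (adjusted p = 0.00706) in medial cortex. Of its exonic bases, 14.0% overlap another gene on the same strand. Ntng1 ran from 0.278 to 1.24 TPM (median 0.549) in control dorsal libraries and was at 1.53, 3.06, 0.594 and 1.03 TPM in the mutant ones. Those groups overlapped, and the log2 change of 0.57 ± 0.22 passed narrowly (limma adjusted p = 0.0491), a call lost in 14 of 19 fits that each left out 1 library, with an adjusted p of up to 0.224 without mutant dorsal replicate 2. It was also lost with no filter (0.0799), with a pseudocount of 0.1 or 0.5 TPM (0.0702 and 0.0544) and with dorsal libraries fitted alone (0.0890). In medial cortex Ntng1 did not pass (adjusted p = 0.410).

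Sema6a, a transmembrane semaphorin that binds A-type plexins, was the other ligand that rose in both regions. Its control dorsal libraries ran from 1.77 to 2.6 TPM (median 2.29) and the mutant ones were at 2.95, 3.96, 3.42 and 3.86 TPM, without overlap. In medial cortex the values were 2.72, 3.05, 1.79, 1.73 and 2.02 TPM in control and 4.22, 2.94, 4.91 and 3.22 TPM in mutant libraries, where the ranges overlapped. The log2 change was 0.48 ± 0.13 (limma adjusted p = 0.00878) in dorsal and 0.56 ± 0.14 (adjusted p = 0.00365) in medial cortex.

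**Figure D3:**
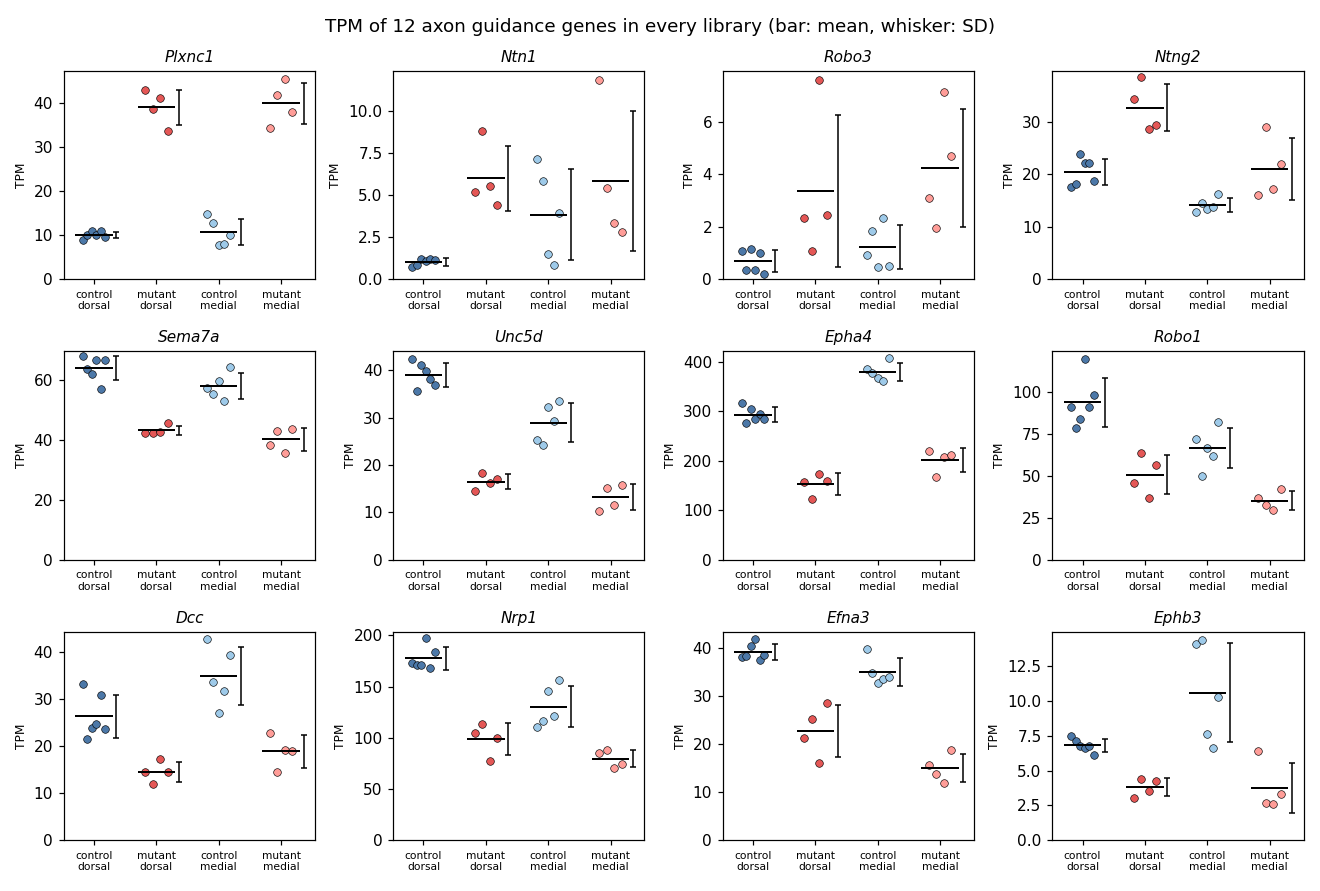
TPM of 12 members in each of the 19 libraries, by region and genotype. Points are libraries, bars are group means and whiskers are the SD. Plxnc1 separates mutant from control in both regions with 33.6 to 42.9 TPM against 8.87 to 10.9 TPM in dorsal cortex, while Ntn1 overlaps in medial cortex.

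Most receptors of netrins fell. All 5 were tested, and 3 fell in dorsal and 4 in medial cortex. Unc5d, a repulsive netrin and Flrt receptor of migrating cortical neurons, on chromosome 8, 28646717 to 29219636, minus strand, showed the largest fall of any member in dorsal cortex. It ran from 35.7 to 42.4 TPM (median 39) in control dorsal libraries and was at 14.4, 18.4, 16.1 and 17.1 TPM in mutant ones. In medial cortex the values were 25.3, 24.2, 32.2, 29.3 and 33.6 TPM in control and 10.3, 15.1, 11.6 and 15.9 TPM in mutant libraries. No mutant library reached a control library in either region. In medial cortex the fall was by 1.09 ± 0.11 on the log2 scale (limma adjusted p = 1.64e-06).

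Dcc, the receptor through which netrin attracts, ran from 21.5 to 33 TPM (median 24.2) in control dorsal libraries and was at 14.48, 11.9, 17.2 and 14.4 TPM in mutant ones. Medial values were 42.7, 33.5, 27, 31.7 and 39.2 TPM in control and 22.8, 14.3, 19.2 and 18.9 TPM in mutant libraries. Mutants were lower without overlap in both regions. Dcc fell by 0.81 ± 0.14 (limma adjusted p = 0.000299) and by 0.85 ± 0.15 (adjusted p = 0.000239) on the log2 scale. Unc5b, known from vessels as well as axons, fell by 0.44 ± 0.09 and 0.48 ± 0.10 with no overlap. Unc5a fell by 0.73 ± 0.16 in medial cortex (adjusted p = 0.00176), where its libraries did not overlap, and its dorsal change of -0.29 ± 0.16 did not pass (adjusted p = 0.162). Unc5c, at 1.74 ± 0.203 TPM (SD, n = 6) in control dorsal cortex, changed by -0.25 ± 0.11 and -0.23 ± 0.11 and did not pass in either region. The dorsal value passed without mutant dorsal replicate 2 or 4 (adjusted p of 0.0327 and 0.0345) and with plain empirical Bayes, without its trend and robust settings (0.0388). The summed level of the 5 receptors was 77.4 to 92.9 TPM in control dorsal and 44.2 to 49.3 TPM in mutant dorsal libraries, and 77.3 to 91.6 TPM against 40.3 to 47.9 TPM in medial cortex.

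Among Eph receptors of the A class, 3 of the 5 tested fell in both regions and none rose. Epha4, on chromosome 1, 77367185 to 77515088, minus strand, ran from 277 to 316 TPM (median 289.9) in control dorsal libraries and was at 157, 122, 174 and 159.8 TPM in mutant ones. Medial values were 386, 378, 367, 361 and 408 TPM in control and 221, 167, 207 and 213 TPM in mutant libraries. Its mutant and control libraries did not overlap in either region. Epha4 fell by 0.95 ± 0.08 on the log2 scale (limma adjusted p = 1.4e-07) in dorsal and by 0.92 ± 0.09 (adjusted p = 5.2e-07) in medial cortex, the largest loss in TPM of any member. Epha5 and Epha7, receptors of A-type ephrins expressed in graded patterns across the cortex, fell by 0.62 ± 0.14 and 0.57 ± 0.09 in dorsal cortex and by 0.65 ± 0.14 and 0.90 ± 0.10 in medial cortex. Epha7 ran from 18.1 to 23.6 TPM (median 19.4) in control dorsal libraries and was at 13, 14.2, 10.004 and 15.3 TPM in mutant ones, and at 18, 17.6, 15.6, 16.9 and 17.4 TPM in control and 8.69, 8.04, 8.64 and 9.36 TPM in mutant medial libraries. No library of the mutant reached a control there. Epha3, the second most abundant receptor, changed by -0.07 ± 0.17 (adjusted p = 0.790) and -0.04 ± 0.18 (adjusted p = 0.885). Epha2, at 1.62 ± 0.513 TPM in control dorsal cortex, also passed in neither region.

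EphB receptors, which bind B-type ephrins, fell in 3 of 5 cases in dorsal and 4 of 5 in medial cortex. Ephb3 ran from 6.1 to 7.46 TPM (median 6.76) in control dorsal libraries and was at 3.01, 4.39, 3.5 and 4.28 TPM in mutant ones. In medial cortex it was at 14.1, 14.4, 7.63, 6.61 and 10.3 TPM in control and 6.4, 2.65, 2.61 and 3.29 TPM in mutant libraries. Neither region showed overlap. The fall of Ephb3 was 0.71 ± 0.20 on the log2 scale in dorsal (limma adjusted p = 0.0106) and 1.30 ± 0.21 in medial cortex (adjusted p = 0.000127), the latter the largest fall of any member in medial tissue. Ephb6, which lacks kinase activity, fell by 0.80 ± 0.08 and 0.83 ± 0.08, and Ephb2 by 0.25 ± 0.07 and 0.33 ± 0.07. Ephb2 in dorsal cortex no longer passed after rescaling (adjusted p = 0.0757 with median-ratio and 0.0748 with quantile scaling). Ephb1 was at 20.3, 24.9, 10.7, 9.52 and 15.1 TPM in control medial and 11.6, 3.58, 7.44 and 4.87 TPM in mutant medial libraries. These groups overlapped, and Ephb1 fell by 1.14 ± 0.28 (adjusted p = 0.00324), while its dorsal change of -0.44 ± 0.27 did not pass (adjusted p = 0.207) except with dorsal libraries fitted alone (0.0433). Ephb4, a receptor of vein endothelium, changed by -0.16 ± 0.09 and -0.23 ± 0.10, and passed in neither region with all libraries but in dorsal cortex without mutant dorsal replicate 3 (adjusted p = 0.0176). Its medial value passed without mutant dorsal replicate 2 or 3 or mutant medial replicate 3 (adjusted p of 0.0291, 0.0257 and 0.0315), and with medial libraries fitted alone (0.0405). Ephb1 and Ephb3 were highest, among control medial libraries, in libraries 2, 3 and 6, which were also highest in the hem gene Wnt3a, and among mutant medial ones in library 1, likewise the highest in Wnt3a. The part of hem tissue in these medial values was not tested.

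Of 8 ephrins 5 fell in both regions and none rose. The B-type ephrins, transmembrane ligands with their own signalling tail, all fell in both regions: Efnb1 by 0.22 ± 0.06 and 0.22 ± 0.06, Efnb2 by 0.39 ± 0.09 and 0.37 ± 0.10, and Efnb3 by 0.40 ± 0.10 and 0.60 ± 0.10 on the log2 scale. Efnb1 did not pass after median-ratio rescaling (adjusted p = 0.123 in dorsal and 0.165 in medial cortex) or, in medial cortex, with its libraries fitted alone (0.0569), and its medial change was -0.15 without mutant medial replicate 1 (0.0400). Of the 5 lipid-anchored A-type ephrins, Efna3 and Efna4 fell in both regions. Efna3 ran from 37.6 to 41.9 TPM (median 38.4) in control dorsal libraries and was at 21.2, 25.2, 16 and 28.6 TPM in mutant ones, with 39.9, 34.8, 32.6, 33.6 and 34 TPM in control and 15.6, 13.7, 11.8 and 18.8 TPM in mutant medial libraries. Mutant libraries were all lower in both regions. The fall of Efna3 was 0.79 ± 0.12 (limma adjusted p = 9.97e-05) and 1.18 ± 0.13 (adjusted p = 2.25e-06), and 14.1% of its exonic bases overlap a gene on the other strand. Whether the counting used strand is not stated, so reads of such pairs cannot be told apart. Efna5, the ligand that patterns thalamic axons in sensory cortex, was at 0.608 ± 0.221 TPM in control dorsal cortex and changed by 0.36 ± 0.14 (adjusted p = 0.0554), a dorsal value that passed with the embryo as a random block (adjusted p = 0.0496) after either rescaling (0.0391 and 0.0351), with plain empirical Bayes (0.0438) and with a pseudocount of 0.1 TPM (0.0452). Its medial value passed as higher after quantile normalization (0.0464). Leaving out 1 of 5 libraries also brought the dorsal value of Efna5 past the threshold (adjusted p of 0.0241 to 0.0492). These were control dorsal replicate 1, mutant dorsal replicate 1, control medial replicate 6, and mutant medial replicates 1 and 3. Efna1 and Efna2 passed in neither region.

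Of 3 Slits 1 fell in dorsal and 2 in medial cortex, and of 4 Robo receptors Robo3 rose in both regions while 2 fell in dorsal and 1 in medial cortex. Slit1, the most abundant Slit at 38.8 ± 4.79 TPM in control dorsal cortex, fell by 0.49 ± 0.13 (limma adjusted p = 0.00593) in dorsal and by 0.42 ± 0.13 (adjusted p = 0.0175) in medial cortex. Its medial call was lost without control medial replicate 6 (adjusted p = 0.0512) or mutant medial replicate 2 (0.0690), and after median-ratio rescaling (0.0551) or quantile normalization (0.0648). With male embryos only the medial change of Slit1 was -0.65 (0.0132). Slit3 fell by 0.53 ± 0.18 in medial cortex (adjusted p = 0.0255), a call lost on leaving out any of 4 libraries, control medial replicate 2 or 3 or mutant medial replicate 2 or 4, with adjusted p of 0.064, 0.0666, 0.122 and 0.0689. The Slit3 call was also lost after median-ratio rescaling (0.0536) or quantile normalization (0.0875), with sex as a term (0.0976), with medial libraries fitted alone (0.0961) and with male embryos only, where the change was -0.33 (0.377). Slit2 changed by -0.60 ± 0.24 in medial cortex and missed the threshold (adjusted p = 0.0541). It passed on leaving out 1 of 5 libraries, mutant dorsal replicate 3, control medial replicate 4 or 5, or mutant medial replicate 1 or 3 (adjusted p of 0.0199 to 0.0398). Robo1, the main Slit receptor by level, ran from 78.6 to 120.0 TPM (median 91.2) in control dorsal libraries and was at 45.6, 64, 37.1 and 56.6 TPM in mutant ones. In medial cortex Robo1 was at 72.1, 49.8, 66.5, 62.2 and 82.2 TPM in control and 36.7, 32.6, 29.4 and 42.3 TPM in mutant libraries. The ranges did not overlap in either region, and Robo1 fell by 0.89 ± 0.15 (limma adjusted p = 0.000236) and 0.89 ± 0.16 (adjusted p = 0.000305). Robo2 was at 37.7, 42.6, 27.8 and 39.9 TPM in mutant dorsal libraries against controls from 54.6 to 70.8 TPM (median 63), and fell by 0.77 ± 0.17 without overlap (adjusted p = 0.00164). Its medial libraries were at 20.7, 18.6, 34.5, 33.3 and 35.7 TPM in control and 27.9, 25.4, 19.5 and 24.4 TPM in mutant cortex, overlapped, and changed by -0.19 ± 0.17 (adjusted p = 0.422). With male embryos only the medial change was -0.50 and passed (adjusted p = 0.0369). Robo4, the endothelial Robo, passed in neither region. The 9 endothelial markers summed to 102 to 118 TPM in control dorsal and 81.5 to 102 TPM in mutant dorsal libraries.

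Neuropilins, the ligand-binding co-receptors of class 3 semaphorins, both fell, Nrp1 in both regions and Nrp2 in medial cortex. Nrp1 ran from 169 to 197 TPM (median 172) in control dorsal libraries and was at 105, 113, 76.9 and 100.1 TPM in mutant ones. Medial values of Nrp1 were 110.4, 117, 146, 121 and 157 TPM in control and 84.6, 87.9, 70.5 and 73.9 TPM in mutant libraries. No mutant library reached a control. Nrp1 fell by 0.85 ± 0.11 (limma adjusted p = 7.12e-06) and by 0.70 ± 0.11 (adjusted p = 9.07e-05). Nrp2 was at 37.7, 36.1, 24.3, 16.3 and 34.1 TPM in control medial and 22.1, 8.67, 15.2 and 11.6 TPM in mutant medial libraries, which overlapped, and fell by 1.01 ± 0.22 (adjusted p = 0.00180). Control medial libraries 2, 3 and 6 and mutant medial library 1 were the highest of their groups in Nrp2, as in the hem gene Wnt3a. The part of hem tissue in the medial Nrp2 values was not tested. In dorsal cortex the mutant libraries of Nrp2 were at 7.07, 7.92, 7.11 and 6.94 TPM, all below controls from 8.81 to 12.2 TPM (median 11.4), with a change of -0.54 ± 0.22 that just missed the threshold (adjusted p = 0.0557). That dorsal value passed without control dorsal replicate 6, control medial replicate 5, or mutant medial replicate 1 or 2 (adjusted p of 0.0462, 0.0221, 0.0295 and 0.0357), with a pseudocount of 0.1 TPM (0.0464) and when dorsal libraries were fitted alone (0.00103).

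Of the 8 plexins tested, Plxnc1 alone rose, and Plxna1, Plxna3 and Plxna4 fell in both regions. These are A-type plexins, which transduce class 3 signals with neuropilins. Plxna1 fell by 0.41 ± 0.09 and 0.41 ± 0.09, and Plxna3 by 0.47 ± 0.11 and 0.51 ± 0.11 (limma adjusted p from 0.00153 to 0.00212 over these 4 values). Plxna4 fell by 0.50 ± 0.18 (adjusted p = 0.0337) and 0.62 ± 0.18 (adjusted p = 0.0122), but its groups overlapped in both regions. The dorsal call was lost on leaving out any of 7 libraries, with an adjusted p of up to 0.108, after median-ratio rescaling (0.0743) or quantile normalization (0.0673), and with no filter (0.0591). The medial call was lost without mutant medial replicate 1 (0.0505), and with male embryos only the medial change was -0.95 (0.00682). Plxna2, the most abundant plexin in control dorsal cortex, changed by 0.13 ± 0.13 (adjusted p = 0.464) and 0.12 ± 0.14 (adjusted p = 0.544). Among B-type plexins, receptors of class 4 semaphorins, Plxnb2 fell by 0.17 ± 0.05 in medial cortex (adjusted p = 0.00972), which did not hold after median-ratio rescaling (0.248) or quantile normalization (0.0987), and Plxnb1 passed in neither region. Plxnd1, the plexin of vessels, did not pass in either region but fell in dorsal cortex with sex as a term (0.0434).

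Secreted class 3 semaphorins gave 3 falls in dorsal cortex, Sema3a, Sema3f and Sema3g, and 1 in medial cortex, Sema3f, among 6 tested. Sema3f, a repellent acting through Nrp2, ran from 19.4 to 26 TPM (median 23.1) in control dorsal libraries and was at 12.1, 15.7, 10.7 and 18 TPM in mutant ones, below all controls. It fell by 0.68 ± 0.15 (limma adjusted p = 0.00214) there and by 0.70 ± 0.16 (adjusted p = 0.00198) in medial cortex. Sema3a, the classic repellent acting through Nrp1, was at 11.4, 14.7, 9.64 and 11.8 TPM in mutant dorsal libraries against controls from 15.4 to 18.3 TPM (median 16.1). Sema3a fell by 0.45 ± 0.14 (adjusted p = 0.0190), a call lost without mutant dorsal replicate 3 (0.0831) and after rescaling (0.0600 and 0.106). Sema3g fell by 0.54 ± 0.09 in dorsal cortex (adjusted p = 0.000111) from 3.4 ± 0.344 TPM. Sema3c, an attractant of callosal axons, changed by 0.03 ± 0.26 and by -0.67 ± 0.27 (adjusted p = 0.0597). The medial value of Sema3c passed without mutant dorsal replicate 3, control medial replicate 5 or mutant medial replicate 1 (adjusted p of 0.0449, 0.00632 and 0.0280). Sema3b and Sema3e did not pass in either region, but in medial cortex Sema3b passed without mutant medial replicate 1 (0.0390). Sema3e passed there as higher without mutant medial replicate 3 (0.0436) and after quantile normalization (0.0227).

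Of 13 membrane-bound semaphorins tested, 7 fell and Sema6a rose in each region. The 7 were Sema4b, Sema4c, Sema4d, Sema4g, Sema6b, Sema6c and Sema7a. Sema4b ran from 20.9 to 23.9 TPM (median 22.2) in control dorsal libraries and was at 15.8, 15.4, 14.498 and 15.2 TPM in mutant ones, without overlap. It fell by 0.52 ± 0.05 (limma adjusted p = 7.43e-07) in dorsal and by 0.52 ± 0.06 (adjusted p = 1.64e-06) in medial cortex. Sema4d, the ligand of Plxnb1, fell by 0.45 ± 0.07 and 0.45 ± 0.08, and Sema4g by 0.54 ± 0.14 and 0.60 ± 0.15. The medial change of Sema4d was -0.28 after quantile normalization (0.00441) and that of Sema4c -0.20 after median-ratio rescaling (0.0448). Sema6b fell by 0.43 ± 0.15 in dorsal cortex (adjusted p = 0.0348), a call lost on leaving out any of 6 libraries, with an adjusted p of up to 0.170 without mutant dorsal replicate 3. It was also lost after median-ratio rescaling (0.108) or quantile normalization (0.135), with no filter (0.0624), with sex as a term (0.105) and with male embryos only (0.287). Sema4a, Sema4f, Sema5a, Sema5b and Sema6d did not pass in either region. Sema5a passed as lower when dorsal libraries were fitted alone (-0.38, adjusted p = 0.0146). The medial value of Sema4f passed with the embryo as a random block (replicate block, adjusted p = 0.0492), with plain empirical Bayes (0.0494) and without control medial replicate 5 or mutant medial replicate 2 (0.0487 and 0.0451). Sema6d, a ligand of Plxna1, at 55.6 ± 6.39 TPM in control dorsal cortex, changed by -0.06 ± 0.19 and -0.03 ± 0.20, while its relative Sema6c fell by 0.40 ± 0.11 and 0.57 ± 0.11.

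**Figure D4:**
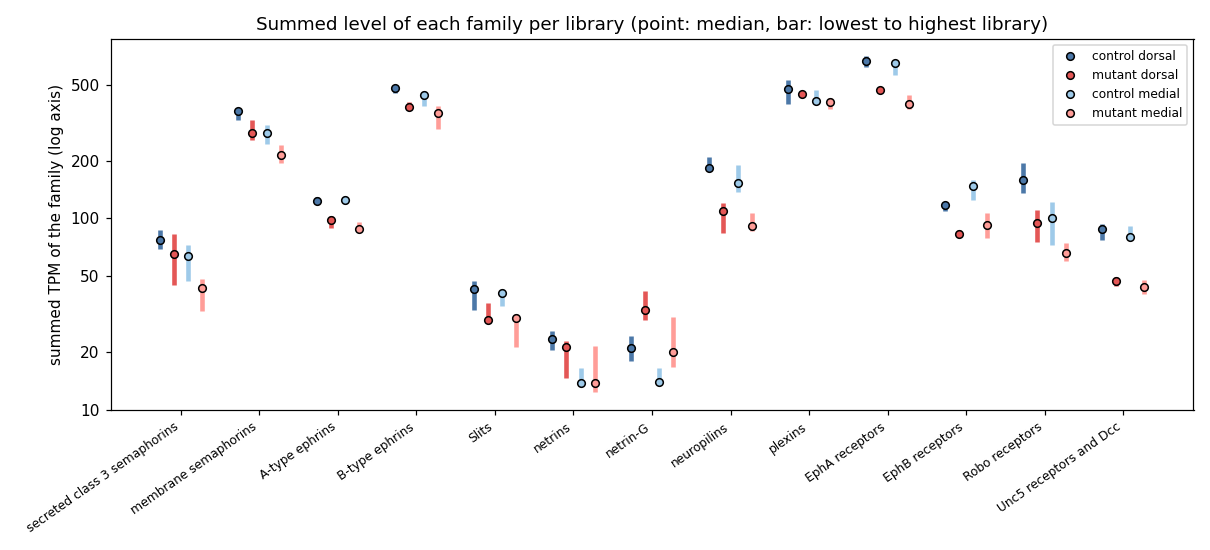
Summed TPM of each family on a log axis. Points are group medians and bars run from the lowest to the highest library; the Unc5 receptors and Dcc sum to 44.2 to 49.3 TPM in mutant dorsal against 77.4 to 92.9 TPM in control dorsal libraries, while plexins overlap, with 443 to 456 TPM against 398 to 528 TPM.

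The second question was whether the change differed between regions. For no member did the difference between the medial and the dorsal change pass (limma, lowest adjusted p = 0.790 for Sema3g), and among all genes 0.0074% did, which is 1 gene. At an unadjusted p under 0.05 there were 8 members, 12.7% against 3.34% of all genes: Efna3, Efna4, Epha7, Ntn1, Ntn4, Robo2, Sema3g and Slit3. The difference, medial minus dorsal, was -1.22 ± 0.54 for Ntn1, 0.58 ± 0.24 for Robo2, 0.52 ± 0.22 for Ntn4, 0.43 ± 0.12 for Sema3g and -0.64 ± 0.25 for Slit3 (SE, each with an adjusted p of at least 0.790). With the embryo as a random block (replicate block), which uses the pairing of dorsal and medial pieces, again no member passed, but 13 had an unadjusted p under 0.05, 20.6% of the members against 9.28% of all genes. The lowest adjusted p was 0.0566 for Sema3g, and 49 genes passed overall. Calls in 1 region only, such as those of Ntn1, Robo2 and Sema3g in dorsal and of Nrp2, Ephb1 and Unc5a in medial cortex, were therefore not shown to differ between the regions.

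The third question was how the regions differ within a genotype. In control cortex 12 members were higher and 24 lower in medial than in dorsal pieces, where 32.4% of all genes passed, 17.6% higher and 14.9% lower. Medial and dorsal libraries did not overlap for 8 higher and 17 lower members, against 20.5% of all genes, 11.1% higher and 9.39% lower. The members' median was -0.16, beside 0.01 for all genes. In the 5 control embryos with both pieces, 15 members were higher and 29 lower medially in every embryo, where 27.4% of all genes were higher and 22.0% lower in every embryo. The random replicate block gave 17 higher and 29 lower members, and 26.5% of all genes higher and 22.4% lower. It added for example Sema6b (adjusted p = 0.0027), Efna5 (0.00507), Ephb2 (0.0111) and Sema7a (0.0113). With male embryos only, which leaves 2 control embryos with medial pieces, none passed (limma, lowest adjusted p = 0.0821 for Robo2, 19 members at an unadjusted p under 0.05, 30.2% against 15.5% of all genes), and 10 genes passed in all.

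Medially enriched members of control cortex were led by Slits. Slit2 ran from 2.23 to 3.16 TPM (median 2.79) in control dorsal libraries and was at 14.6, 15.3, 7.81, 7.43 and 8.63 TPM in control medial ones, 1.58 ± 0.22 higher on the log2 scale (limma adjusted p = 7.56e-05). Slit3 was below 1 TPM in all control dorsal libraries, 0.337 to 0.603 TPM, and at 3.51, 3.64, 2.31, 1.8 and 2.74 TPM medially, 1.35 ± 0.16 higher (adjusted p = 3.34e-05). All medial libraries exceeded all dorsal ones for both Slits. Nrp2 was at 37.7, 36.1, 24.3, 16.3 and 34.1 TPM medially against 8.81 to 12.2 TPM dorsally, 1.29 ± 0.20 higher. Ntn1 was higher by 1.05 ± 0.35 (adjusted p = 0.0283), with overlap, in the libraries whose Wnt3a values are given above. Its call was lost without control dorsal replicate 1 or control medial replicate 2, 3 or 6 (adjusted p of 0.0515, 0.0956, 0.0891 and 0.0585). Ephb1 and Ephb4 were higher by 0.90 ± 0.25 and 0.55 ± 0.09. Slit2, Slit3, Nrp2 and Ephb1 were each highest in control medial libraries 2, 3 and 6, as Wnt3a was, and the part of hem tissue was not tested.

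Dorsally enriched members included the Slit receptors Robo1 and Robo2. Robo2 was lower medially by 1.17 ± 0.16 (limma adjusted p = 7.03e-05), at 20.7, 18.6, 34.5, 33.3 and 35.7 TPM against 54.6 to 70.8 TPM. Sema5a, a transmembrane semaphorin with thrombospondin repeats, was lower by 1.22 ± 0.21, Ntn4 by 1.01 ± 0.14, Sema6d by 0.90 ± 0.18, Plxna4 by 0.83 ± 0.17 and Sema3a by 0.81 ± 0.13. Slit2 and Robo2 thus ran in opposite directions between the control pieces, while Slit1 was lower medially by 0.53 ± 0.12 (adjusted p = 0.00253).

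In mutant cortex 6 members were higher and 22 lower medially, where 18.8% of all genes passed, 8.03% higher and 10.8% lower. Non-overlapping libraries were seen for 3 higher and 11 lower members, against 15.2% of all genes, 7.11% higher and 8.05% lower. The median was -0.17, beside 0.00 for all genes, and the random replicate block gave 10 higher and 31 lower members, where 18.4% of all genes were higher and 20.7% lower. In every one of the 4 mutant embryos, 13 members were higher and 32 lower medially, where 23.5% of all genes were higher and 25.9% lower. Without mutant dorsal replicate 2 or 4, or mutant medial replicate 1 or 3, 2 or 3 members were higher and 10 to 14 lower. Slit2 was still higher medially by 0.94 ± 0.25 (limma adjusted p = 0.0156), Nrp2 by 0.83 ± 0.24 and Slit3 by 0.71 ± 0.19. The main fit does not pair the pieces of an embryo, and in it these calls were lost on leaving out some single libraries. Slit2 and Nrp2 were lost without mutant dorsal replicate 2 or 4 or mutant medial replicate 1 or 3 (adjusted p of 0.0545 to 0.0643 and of 0.0502 to 0.0725). Slit3 was lost without mutant dorsal replicate 2 or mutant medial replicate 3 (0.0588 and 0.0670). Within each of the 4 mutant embryos, Slit2, Nrp2 and Slit3 were higher medially, with smallest log2 differences of 0.66, 0.12 and 0.29. Plxna4 was lower by 0.95 ± 0.19, Sema6d by 0.87 ± 0.21, Sema3f by 0.83 ± 0.17, Epha3 by 0.75 ± 0.19 and Unc5a by 0.74 ± 0.17. The call of Epha3 was lost without mutant medial replicate 3 (adjusted p = 0.0507). Between genotypes 23 members, 36.5% of those tested, passed in the same direction and none in opposite directions. The share of all genes that did so was not counted, so these counts are not read as a trait of the members. Ntn1 and Sema5a passed in control but not in mutant cortex, with values of -0.17 ± 0.41 and -0.72 ± 0.25 in the mutant, and the tests of the difference above apply to them too. Sema5a passed in mutant cortex with the embryo as a block (adjusted p = 0.00729).

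**Figure D5:**
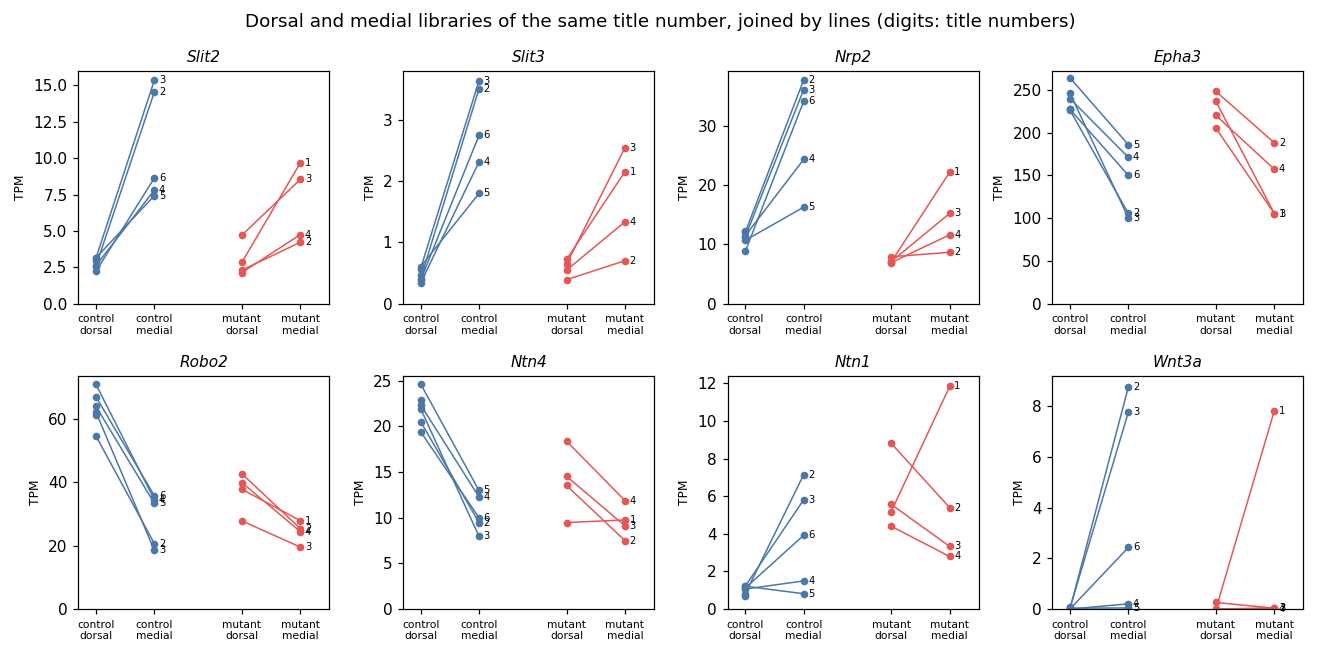
TPM of 7 members and of the hem gene Wnt3a in dorsal and medial libraries, with lines joining libraries of the same title number, controls in blue and mutants in red. Slit2, Slit3 and Nrp2 are higher in the medial piece along every line, Epha3 and Robo2 are lower along every line, and control medial libraries 2, 3 and 6 stand highest for both Ntn1 and Wnt3a.

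Other genes of guidance signalling were counted from lists drawn up by function, also with earlier results of these data known. Of 39 tested cytoplasmic effectors, which carry receptor signals to the cytoskeleton, 18 fell and 2 rose (Farp1 and Rnd3) in dorsal cortex, with a median of -0.20. That is 46.2% lower, beside 27.6% of all genes and their median of -0.10. In medial cortex 15 fell and 3 rose (Ablim1, Farp1 and Rnd3), with a median of -0.14, and this share of 38.5% lower and this median lay near the 30.2% and -0.11 of all genes. Chn2, a Rac regulator downstream of Eph receptors and plexins, fell by 0.73 and 0.76. Of 38 other cues, co-receptors and partners, 21 fell and 3 rose (Gpc3, Nell2 and Ptprd) in dorsal cortex and 22 fell and 3 rose in medial cortex, with medians of -0.28 and -0.32. These are 55.3% and 57.9% lower, against the same 27.6% and 30.2% of all genes. Draxin, a secreted netrin-binding repellent of commissural axons, fell by 0.67 and 0.39. Cntn2, an axonal adhesion molecule of corticofugal neurons, fell by 0.73 and 0.77, and Cdon, a co-receptor of Hedgehog ligands, by 0.62 and 0.66.

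Neuron markers moved with the members that fell. Of 12 neuron markers 10 fell and none rose in each region, with medians of -0.49 in dorsal and -0.55 in medial cortex. Their summed level was 5611 to 6406 TPM in control dorsal and 3573 to 5321 TPM in mutant dorsal libraries, and 3820 to 4928 TPM against 2573 to 3295 TPM in medial cortex. Of the 63 members, 19 had a change below that median in dorsal cortex, 30.2% against 5.92% of all genes, and 21 in medial cortex, 33.3% against 7.24% of all genes. Those below the lowest neuron marker were Dcc, Efna3, Epha4, Ephb6, Nrp1, Robo1 and Unc5d in dorsal cortex, and Efna3, Epha4, Epha7, Ephb1, Ephb3, Nrp2, Robo1 and Unc5d in medial cortex. Cell cycle genes rose in all 8 cases in both regions, from 1104 to 1338 TPM summed in control dorsal to 1864 to 2474 TPM in mutant dorsal libraries. Of 5 tested Cajal-Retzius markers, genes of early neurons at the cortical surface, 5 fell in medial and none in dorsal cortex. Of 6 microglia markers 4 fell in dorsal and none in medial cortex, with sums of 41.0 to 56.6 TPM in control dorsal and 28.7 to 34.6 TPM in mutant dorsal libraries. Of 8 tested interneuron and ventral telencephalon markers, Dlx1, Gad1, Gad2 and Lhx6 fell in medial cortex, where the list summed to 21.6 to 46.8 TPM in control and 3.04 to 28.9 TPM in mutant libraries, and Gsx2 rose in dorsal cortex. Lhx9, the 1 gene tested of a thalamus and diencephalon list, fell by 1.33 in medial cortex, from 11.8 to 23.7 TPM in control to 2.42 to 8.95 TPM in mutant libraries. No marker of the Cajal-Retzius, microglia, interneuron or thalamus lists passed the test of the difference between regions. Calls of these lists in 1 region only were therefore not shown to differ between the regions. Of 8 radial glia markers 5 rose and 2 fell in dorsal cortex, and 3 rose and 1 fell in medial cortex. The part of cell makeup in the members' values was not tested.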

How the data were processed

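The deposited table gives 1 TPM value for each of 47643 gene symbols in each of 19 libraries of E14.5 mouse cortex. Per the labels' protocols, extraction was by RNeasy Micro and library preparation by a TruSeq kit for stranded total RNA. The build was mm10, per the submitters' processing notes. What aligned and quantified the reads, on which annotation and whether by strand, is not given in the sources used here. TPM values made by the authors sum to 1000000 in each library, so depth is unknown and no counting interval is given.

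Values were transformed to log2(TPM + 1). A gene was fitted if 4 or more libraries held 1 TPM or more of it, which kept 13520 genes. The model was fitted with limma 3.58.1 in R 4.3.3, with 1 mean for each of the 4 groups, empirical Bayes with trend and robust settings, and Benjamini-Hochberg adjustment over all genes in each of 5 comparisons. Adjusted p-values under 0.05 passed, tests were 2-sided, and fold changes on this scale understate changes of low genes. The fit was tested on simulated data for the dorsal comparison with 13520 genes: 71 of 100 genes changed by 0.5 (log2) and 95 of 100 changed by 1 were recovered, with 13 false calls. The simulated noise was independent between libraries, and far fewer genes were changed than passed in the data. These figures therefore need not hold for the fits above.

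The members and the gene lists were chosen with earlier results of these data known. Named with values were the members with the largest changes past the threshold in each comparison, the most abundant of each family and a few well known receptors and ligands. Others, among them Sema4f, Sema3b and Sema3e, were named after their values were seen, because a call changed between fits. Gene spans and exon overlaps come from the GENCODE annotation of GRCm38. Promoters come from RefSeq (GRCm38.p6) for the 59 members found there by symbol.

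Title numbers pair dorsal and medial libraries within a genotype: deviations from group means correlated at 0.549 to 0.795 in all 9 pairs, and 18 of 18 libraries were closest to their own number. Across genotypes the 7 same-numbered pairs of a region gave -0.436 to 0.138, so numbers do not pair control with mutant. Control medial libraries are numbered by their titles, 2 to 6. Alternatives were a block for the pairing, other pseudocounts, filters and scalings, each region fitted alone, sex as a term, leaving out each library and, chosen after the data were seen, male embryos only.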

Additional observations from a re-analysis of the deposited data

Results flagged for a closer look

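Single libraries far from the others of their group were looked for among 42 named members in 4 groups, 168 sets of values, of which chance would mark about 1 in 20. There were 3. Efnb2 was at 171 TPM in mutant dorsal replicate 2, above the other mutant dorsal libraries at 145 to 148 TPM and still below all controls. Sema7a was at 45.5 TPM in mutant dorsal replicate 4, above the others at 42.3 to 42.7 TPM. Unc5b was at 13.0 TPM in control medial replicate 3, above the others at 9.60 to 10.6 TPM. The calls of these 3 members in both regions held on leaving out any single library.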

How the results depend on the processing

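Among the 42 named members, no direction of a call reversed under any alternative that was run. Of 6359 values of these named members over the 5 comparisons, 6089 kept their side of the threshold, 207 lost it and 63 gained it. That total includes the difference between regions, where no member passed in any fit, so those values could only be counted as kept. Over all 63 tested members, calls that held in every fit leaving out 1 library were 29 of 32 lower and 4 of 6 higher in dorsal cortex. In medial cortex they were 30 of 33 lower and 3 of 4 higher. Those that held in every alternative in which the member was tested were 23 and 4, and 25 and 2. Low members such as Sema6a are not tested under the filter of at least 5 TPM, so that fit could not end their calls. With a filter of at least 5 TPM, 3 members were higher in dorsal and 2 in medial cortex, since fewer low genes are tested. The share of all genes under that filter was not counted. With male embryos only, 2 members were higher in medial cortex, and in medial against dorsal control cortex 0 were higher and 0 lower; this leaves fewer samples. Sex differs between the genotypes and cannot be set apart fully: with sex as a term, 6 members rose and 32 fell in dorsal cortex and 4 rose and 32 fell in medial cortex. Of all genes, 8.72% rose and 25.4% fell in dorsal cortex in that fit, and 7.93% and 27.4% in medial cortex.

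The pairing of pieces from 1 embryo as a random replicate block gave 7 higher and 32 lower members in dorsal cortex, 4 and 34 in medial cortex, 17 and 29 in medial against dorsal control cortex, and 10 and 31 in mutant cortex. Of all genes it gave 9.93% higher and 26.9% lower in dorsal cortex, 9.36% and 30.5% in medial cortex, and the shares stated above between regions. With the title number as a fixed term (replicate block) the counts were 6 and 32, 4 and 34, 14 and 26, and 6 and 25. Of all genes, the fit with this term gave 10.7% higher and 27.9% lower in dorsal cortex, and 9.71% and 29.1% in medial cortex. For medial against dorsal pieces the shares with this term were 20.2% and 16.6% in control cortex, and 11% and 12.7% in mutant cortex. That term also ties control to mutant libraries of the same number, which the deviations do not pair, so the mutant against control calls it gained or lost are not read. Between mutant and control, the random block changed no other call than those of Efna5 and Sema4f given above.

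Leaving out 1 library gave 5 to 6 higher and 30 to 33 lower in dorsal cortex, 4 higher and 32 to 36 lower in medial cortex, 0 for the difference between regions, 8 to 13 higher and 21 to 26 lower in control cortex, and 2 to 7 higher and 10 to 24 lower in mutant cortex. The shares of all genes in these fits were not counted. Depth is unknown, so which of the low members are limited by read number was not tested.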

Other observations

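Among mutant libraries, Ntng1, Robo3 and Ntng2 were each highest in the same title number in both regions. That number was not the same for every gene. Ntng1 was at 1.53, 3.06, 0.594 and 1.03 TPM in mutant dorsal libraries 1 to 4 and at 0.678, 1.2, 0.461 and 0.309 TPM in mutant medial libraries 1 to 4, highest in library 2 of both regions. Robo3 was highest in library 3 of both regions, at 7.57 and 7.14 TPM. Ntng2 was highest in library 2 of both, at 38.5 and 29.1 TPM. Ntn1 was highest in different libraries, replicate 2 in dorsal (8.81 TPM) and replicate 1 in medial cortex (11.8 TPM), the latter being the mutant medial library with Wnt3a at 7.83 TPM. These are values of single embryos and were not tested.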
